A study of Mus musculus with 4 samples.

Results

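RNA sequencing compared 1 library of colorectal polyps with 1 library of neighbouring non-polyp tissue from germ-free Clec7a-/- mice, here called KO. These are 2 of the 4 libraries of the series, and the other 2 are the same pair of tissues from germ-free wild-type (WT) mice. Gene names were compared: 54595 of the 54621 names of reference genes in the series were taken, and the abundance of each, in TPM (transcript abundance corrected for gene length and library size), was summed over the entries that share the name. A name was called higher or lower in KO polyps where the log2 ratio of TPM + 1, polyp over non-polyp, was above 1 or below -1.

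All mice of the 4 groups were germ-free, that is raised without microbes, and in all of them colorectal tumours were induced with azoxymethane (AOM), which damages DNA, followed by 3 rounds of 1% dextran sodium sulfate (DSS), which wounds the epithelium. Tissue was collected at week 36. KO mice lack Clec7a in all cells, and WT mice carry it. Clec7a encodes Dectin-1, a receptor of myeloid cells for beta-glucans of fungal cell walls. The WT animals were bought as germ-free mice, whereas the KO line was rederived by caesarean delivery with germ-free WT foster mothers, so genotype and origin cannot be told apart. Every library was made from RNA pooled over several mice. Since each group is 1 library, replicate error cannot be measured and no test was made: the differences are between pools of RNA.

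Small lymphoid follicles lie in the wall of the normal mouse colon. They are built mainly of B cells, which the chemokine Cxcl13 and lymphotoxin signals gather, and they lie under a follicle-associated epithelium that contains M cells, which take up particles from the gut lumen. Naive B cells carry IgM and IgD on their surface, while most plasma cells of the gut secrete IgA. Polyps of the AOM and DSS model are epithelial tumours, which in mice typically show active Wnt signalling.

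The targeted gene matched the labels. Clec7a stood at 0.102 TPM in the KO polyp library, 0.0766 in KO non-polyp tissue, 31.2 in WT polyps and 5.97 in WT non-polyp tissue. The polyp label was less clear in the KO pair. Among the Wnt targets and crypt stem cell genes, Axin2, a feedback inhibitor that follows Wnt signalling, stood at 20.1 TPM in the KO polyp library, 27.7 in KO non-polyp tissue, 335 in WT polyps and 28.1 in WT non-polyp tissue. Notum, another Wnt inhibitor, stood at 0.625 TPM in the KO polyp library, 0.0555 in KO non-polyp tissue, 418 in WT polyps and 8.83 in WT non-polyp tissue. Both were highest in WT polyps. For Axin2 the KO polyp library lay near the non-polyp libraries. For Notum it lay between them, above KO and below WT non-polyp tissue. The study's text is not uniform on whether germ-free KO mice had polyps at this stage, so "KO polyp" is used as the label of the library, and the tissue behind it is not known. Pan-epithelial genes were present in it in quantity (summed level 9015 TPM against 10695 TPM in KO non-polyp tissue), including Epcam at 1382 and 1739 TPM, and 0 of 11 of them passed the threshold.

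The tables list between 54700 and 54728 reference genes, whose TPM summed to between 860904 and 906199. Between 16745 and 17357 names reached 1 TPM. Read counts are not given, so depth is unknown and no counting intervals can be given. Across the 19509 names at 1 TPM or more in any library, log2(TPM + 1) of KO polyps correlated with that of KO non-polyp tissue at Pearson r = 0.941, with WT non-polyp tissue at 0.938 and with WT polyps at 0.849. The non-polyp libraries of both genotypes correlated at 0.980. These values describe the libraries, since names are not replicates and share their libraries.

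KO polyps held more names on the higher side than on the lower. Of 54595 names, 1798 were higher (3.29%) and 540 lower (0.989%), with 602 above a log2 ratio of 2 and 57 below -2. Of the 18150 names at 1 TPM or more in either KO library, the same counts made 9.91% higher and 2.98% lower, and their median log2 ratio was 0.04. These shares are the background for the counts of list members below. The higher names took 8.09% of all TPM in KO polyps and 1.76% in KO non-polyp tissue, and the lower names took 1.19% and 3.17%. In KO polyps 586 of the higher names stood under 5 TPM, and 280 of the lower names stood under 5 TPM in KO non-polyp tissue. Among protein-coding genes, 1205 were higher and 338 lower.

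B cell genes led the higher side. All 20 listed genes of B cell identity were higher in KO polyps, with log2 ratios from 1.25 to 5.06 and a median of 4.45. Of all names 3.29% were higher, and of those at 1 TPM or more in either KO library 9.91%. Their summed level was 2631 TPM in KO polyps and 149, 172 and 189 TPM in KO non-polyp tissue, WT polyps and WT non-polyp tissue. Each of the 20 genes was at its highest in the KO polyp library. In a bulk sample, more cells of a type and more RNA per cell cannot be told apart.

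Genes of the antigen receptor complex were higher together. Cd79a and Cd79b carry the signal of the B cell receptor. Cd79a stood at 345 TPM in the KO polyp library, 14.9 in KO non-polyp tissue, 10.2 in WT polyps and 16.8 in WT non-polyp tissue, a KO log2 ratio of 4.44, and Cd79b at 296 against 10.7 TPM in the KO pair (4.66). Ms4a1, which encodes CD20, stood at 106 TPM in the KO polyp library, 3.50 in KO non-polyp tissue, 1.44 in WT polyps and 4.71 in WT non-polyp tissue. In all 3 genes KO polyps stood far above the other 3 libraries. Among those, Ms4a1 was lower in WT polyps than in WT non-polyp tissue (-1.23). Genes typical of resting mature B cells had the largest ratios of the list. Fcer2a (CD23, a low-affinity IgE receptor) stood at 144 against 3.37 TPM, a ratio of 5.06. Cr2, the complement receptor CD21 of B cells and follicular dendritic cells, stood at 125 against 3.00 TPM (4.98). The receptor for the survival factor BAFF, Tnfrsf13c, had a ratio of 4.77, the IgM receptor gene Fcmr 4.67 and the follicle homing receptor Cxcr5 4.62. The transcription factor genes of the lineage were higher too, with Spib at 173 against 7.50 TPM, Pax5 at 18.6 against 0.292 TPM and Ebf1 at 11.2 against 0.811 TPM. The smallest ratios were those of Cd72 (2.24) and Cd55 (1.25), a complement inhibitor made by many cell types, which stood at 26.7 and 33.3 TPM in KO non-polyp tissue already.

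**Figure D1:**
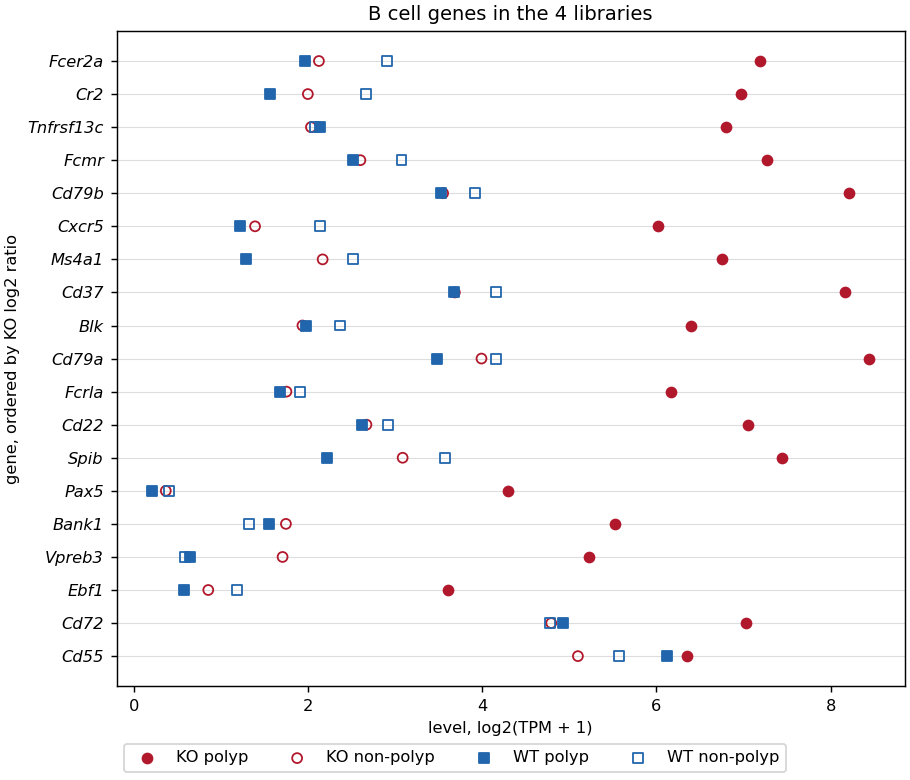
Level of 19 of the 20 genes of B cell identity, as log2(TPM + 1) on the x axis, with 1 point per library and genes ordered by their KO log2 ratio. KO polyps (filled circles) are the highest of the 4 libraries for all 19 genes. KO non-polyp tissue (open circles), WT polyps (filled squares) and WT non-polyp tissue (open squares) lie at the left, except for Cd72 and Cd55. For Cr2, Ms4a1 and Spib, WT polyps lie below WT non-polyp tissue past the threshold.

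The IgM, IgD and IgG heavy chain genes were higher in KO polyps, and the IgA gene was not. Igha did not pass the threshold and stood at 1822 TPM in the KO polyp library, 2829 in KO non-polyp tissue, 96.4 in WT polyps and 1204 in WT non-polyp tissue, a KO log2 ratio of -0.63, so KO polyps lay below KO and above WT non-polyp tissue. Ighm, the IgM heavy chain, stood at 1066 TPM in the KO polyp library, 99.5 in KO non-polyp tissue, 38.7 in WT polyps and 74.2 in WT non-polyp tissue, a KO ratio of 3.41. Ighd, the IgD heavy chain of naive B cells, stood at 381 TPM in the KO polyp library, 5.28 in KO non-polyp tissue, 9.27 in WT polyps and 6.90 in WT non-polyp tissue, a KO ratio of 5.92. Of all heavy chain constant TPM, Igha took 39.7% in KO polyps against 93.1% in KO non-polyp tissue, Ighm 23.3% against 3.27% and Ighd 8.30% against 0.174%. The 4 IgG genes together stood at 1312 against 105 TPM, led by Ighg2b at 978 against 73.4 TPM. Ighe, of IgE, stood at 4.18 against 0.11 TPM. The kappa light chain gene Igkc stood at 6143 against 4481 TPM, within the threshold (0.46), and the lambda gene Iglc3 at 369 against 35.3 TPM (3.35). Heavy chain constant genes together stood at 4585 and 3039 TPM, a ratio of 0.59. Variable segments summed to 6242 TPM in KO polyps and 3602 TPM in KO non-polyp tissue, and of the 181 segments at 1 TPM or more 116 were higher and 5 lower. The segments and IgG genes are near-identical paralogs, and how their shared reads were assigned is not known.

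**Figure D2:**
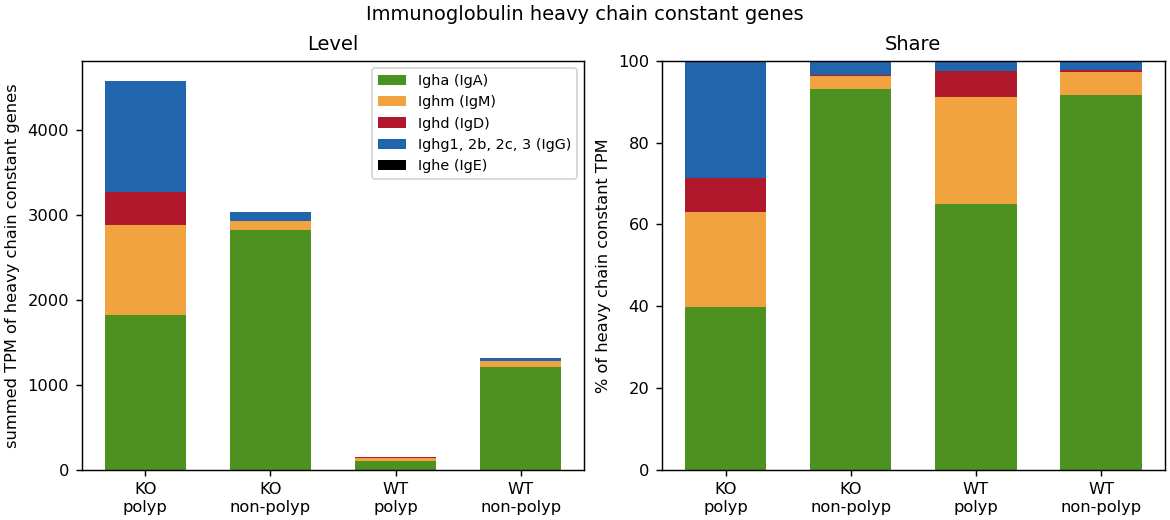
Heavy chain constant genes in the 4 libraries, as stacked TPM on the left and as a percentage of their sum on the right. In KO polyps Igha takes 39.7% of the sum, against 93.1% in KO non-polyp tissue, and Ighm (23.3%), Ighd (8.30%) and the IgG genes (28.6%) take most of the rest there.

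Plasma cell genes did not follow the B cell genes as a group. Of 13 listed, 4 were higher and 0 lower (median 0.32). Jchain, which joins secreted IgA and IgM, stood at 396 and 369 TPM in the KO libraries, and Xbp1, a factor of secretory cells, at 229 and 199 TPM. The 4 higher genes were Tnfrsf13b (TACI, 3.50), the octamer coactivator gene Pou2af1 (3.22), the transcription factor Irf4 (2.62) and the chaperone Mzb1 (1.85), all of which B cells other than plasma cells express too. Germinal centre genes mark B cells that mutate and select their antibodies. Mki67, a gene of dividing cells, stood at 28.8 against 32.6 TPM. Of 14 germinal centre genes 4 were higher and 0 lower, with a median of 0.61. Basp1 led them (1.85).

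The octamer, a motif bound by the Oct factors that Pou2af1 works with, was looked for because B cell genes were higher together. Either ATGCAAAT or its reverse complement ATTTGCAT lay in the promoter of 1 of the 15 B cell genes with an entry in the RefSeq promoter table (250 bases before to 50 after the start, GRCm38.p6) and of 0 of 12 plasma cell genes, against 532 of all 27025 symbols (1.97%). The match, with its capitals marking the octamer, is in the gene of the pre-B cell receptor associated protein Vpreb3 on chromosome 10 from 75948239 to 75948278, plus strand, where the octamer begins 45 bases before the start:
Vpreb3: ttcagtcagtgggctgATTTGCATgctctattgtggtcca

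Genes that build follicles were higher beside the B cell genes. Of 14 genes of follicle stroma and lymphocyte entry vessels, 8 were higher and 0 lower, with a median log2 ratio of 1.71. Cxcl13, the chemokine that draws Cxcr5-bearing B cells, stood at 271 TPM in the KO polyp library, 39.0 in KO non-polyp tissue, 14.8 in WT polyps and 52.1 in WT non-polyp tissue. Its KO ratio was 2.77 and its WT ratio -1.75. The lymphotoxin genes Lta and Ltb had levels of 25.8 against 1.30 and 185 against 8.22 TPM in the KO pair. Tnfsf11, which encodes RANKL, the signal that induces M cells, stood at 22.6 against 1.58 TPM. The vessel genes Glycam1 and Madcam1, whose products bind lymphocyte homing receptors, reached 46.9 and 30.8 TPM from 1.23 and 5.63 TPM in KO non-polyp tissue. Enpp2, the autotaxin gene of high endothelial venules, had a ratio of 2.90. The T zone chemokine gene Ccl19 was listed at 0 and 0.297 TPM in the KO pair, and Ccl21a at 0 in all 4 libraries. Of the 8 higher genes only Glycam1 passed the threshold in the WT pair in the same direction (1.74).

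Genes of the epithelium over follicles were higher as well, 8 of 12 with 0 lower and a median of 1.77. In the WT pair 4 of the 12 were higher and 3 lower, with a median of 0.15. Tnfaip2 (KO ratio 1.78, WT ratio 1.53), Marcksl1 (1.03 and 3.53) and Clu were higher in both pairs. Gp2, an uptake receptor of mature M cells, stood at 27.3 TPM in the KO polyp library, 1.93 in KO non-polyp tissue, 1.55 in WT polyps and 1.49 in WT non-polyp tissue. Ccl20, the chemokine of follicle-associated epithelium, stood at 111 TPM in the KO polyp library, 12.7 in KO non-polyp tissue, 4.19 in WT polyps and 10.7 in WT non-polyp tissue. Sox8, a transcription factor of M cells, stood at 6.41 against 0.386 TPM. Spib (4.35) is needed for M cells but is also on the B cell list, so it does not separate the cell types. Clu, the clusterin gene, stood at 1349 TPM in the KO polyp library, 65.9 in KO non-polyp tissue, 263 in WT polyps and 88.2 in WT non-polyp tissue, a KO ratio of 4.33 and a WT ratio of 1.57. Clusterin is made by M cells, by follicular dendritic cells and by regenerating epithelium. Tnfrsf11a, the RANKL receptor gene, stood at 57.8 and 75.2 TPM, within the threshold.

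Il22ra2 encodes IL-22 binding protein, a soluble inhibitor of IL-22 that dendritic cells of the gut make. It stood at 57.0 TPM in the KO polyp library, 5.98 in KO non-polyp tissue, 0.425 in WT polyps and 4.81 in WT non-polyp tissue, a KO log2 ratio of 3.05 and a WT ratio of -2.03. The KO polyp library was the highest of the 4 and the WT polyp library the lowest. The other genes of the axis had smaller ratios. Il22 itself was listed at 0.15 TPM in the KO polyp library and 0 in the other KO library, and its receptor genes Il22ra1 and Il10rb stood at 27.6 against 36.2 and 107 against 87.1 TPM. Il18, a cytokine of epithelial cells, stood at 218 and 308 TPM, while its decoy receptor gene Il18bp (1.32) and receptor gene Il18r1 (2.30) were higher. The Il23r gene, of the receptor that drives IL-22 production, stood at 1.79 against 0.0688 TPM. In all, 5 of 12 genes were higher and 0 lower.

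T cell genes were higher on a smaller scale of level. Of 20 surface and signalling genes, 18 were higher (median 2.22), and the summed level of the 20 was 258 against 39.7 TPM. In the WT pair 5 were higher (median 0.52), and the sum was 168 against 47.9 TPM. Of the 20, 4 stood higher in WT than in KO polyps, among them Tcf7 at 74.9 against 28.0 TPM. Cd3e of the T cell receptor complex stood at 10.5 TPM in the KO polyp library, 2.02 in KO non-polyp tissue, 0.649 in WT polyps and 1.24 in WT non-polyp tissue. Cd4 and Cd8a, which mark helper and cytotoxic cells, stood at 17.4 against 1.70 and 5.43 against 0.329 TPM. Cd2, an adhesion receptor of T cells, had a ratio of 3.44. Constant segments of the T cell receptor summed to 132.0 against 12.5 TPM. Genes of effector cells were low in level, with 8 of 18 higher. The regulatory T cell factor Foxp3 was at 1.18 and 0.548 TPM, Ifng at 0.377 and 0.195 TPM, and Gzmb at 1.33 and 0.814 TPM, none past the threshold. Icos, of activated and follicular helper T cells, stood at 5.18 against 0.491 TPM and the inhibitory receptor Pdcd1 at 2.49 against 0.0897 TPM.

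The study names 5 T cell genes, 5 Th1 genes and 7 genes of B cells and dendritic cells from these libraries, so their direction is not independent evidence. It describes them as upregulated in polyps of KO against WT mice, whereas the counts here compare KO polyps with KO non-polyp tissue. In the KO pair 5 of 5 of its T cell genes were higher, with Ccr6 at 16.6 against 0.582 TPM and the early activation gene Cd69 at 17.3 against 0.695 TPM. Cd28 and Ccr9, of costimulation and gut homing, had ratios of 1.79 and 1.84. Of its Th1 genes 4 of 5 were higher, with ratios of 1.63 for Tbx21, 2.29 for Il12a and 1.83 for Cxcr3, and Ifng was the exception. All 7 B cell and dendritic cell genes were higher, among them Itgax (CD11c) at 45.8 against 8.23 TPM and the costimulatory genes Cd80 (1.76) and Cd86 (3.56). Where 5 TPM was added in place of 1, the ratios of Tbx21, Cd28, Cd80, Ccr9 and Cxcr3 fell within the threshold, as did the median of the Th1 list (0.79).

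Antigen presentation by MHC class II was higher throughout. All 10 genes passed the threshold (median 2.64), and their summed level was 10729 against 1746 TPM. The invariant chain gene Cd74 stood at 4388 TPM in the KO polyp library, 729 in KO non-polyp tissue, 821 in WT polyps and 518 in WT non-polyp tissue. H2-Ab1, a class II beta chain, stood at 1963 against 328 TPM. H2-Oa and H2-Ob, which encode the peptide loading inhibitor found mainly in B cells, had the largest ratios of the list (4.15 and 4.27). H2-DMb2 came next, at 179 against 10.3 TPM. The class II transactivator Ciita followed (3.72), at 44.9 against 2.49 TPM. The other genes had ratios from 1.58 to 2.69, among them H2-DMa (2.42), H2-Aa (2.53) and Cd74 (2.59). Of 10 class I genes 4 were higher, all of them parts of peptide processing or its control (Nlrc5, Psmb8, Psmb9 and Tap1, 1.22 to 1.62), while B2m stood at 1849 and 1159 TPM. Class I and class II chains have close paralogs, whose shared reads may be split.

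Dendritic cell genes were 15 of 16 higher (median 2.09), and in the WT pair 6 were higher and 1 lower (median 0.65). Flt3, a growth factor receptor of dendritic cell precursors, stood at 13.2 TPM in the KO polyp library, 0.772 in KO non-polyp tissue, 0.554 in WT polyps and 0.933 in WT non-polyp tissue. Ccr7, the receptor with which dendritic cells and naive lymphocytes reach T zones, stood at 31.4 against 1.11 TPM. Clec9a and Xcr1, of the cross-presenting subset, stood at 8.85 against 1.26 and 4.23 against 0.657 TPM, and Siglech, of plasmacytoid cells, at 6.60 against 0.552 TPM. Macrophage genes split: 7 of 14 were higher, including the complement genes C1qa, C1qb and C1qc (1.37 to 1.65) and the apoptotic cell receptor Timd4 (2.11), while Adgre1 (F4/80) stood at 7.90 and 6.71 TPM and Mertk at 25.2 and 35.4 TPM. Of the 12 genes of Dectin-1 and its partners 6 were higher: the kinase gene Syk (75.3 against 17.9 TPM), Plcg2 (46.8 against 6.07 TPM), the adaptor gene Card9 (11.2 against 2.23 TPM), the signalling chain gene Fcer1g (1.22) and the related lectin receptors Clec4n (1.25) and Clec4d (1.01). Syk and Plcg2 also serve the B cell receptor. In the WT pair 7 of the 12 genes were higher, with a median of 1.20 against 1.00 in the KO pair. Card9 (1.38), Fcer1g (1.05), Clec4n (2.08) and Clec4d (3.00) were among them, while Syk (0.59) and Plcg2 (0.81) stayed within the threshold.

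**Figure D3:**
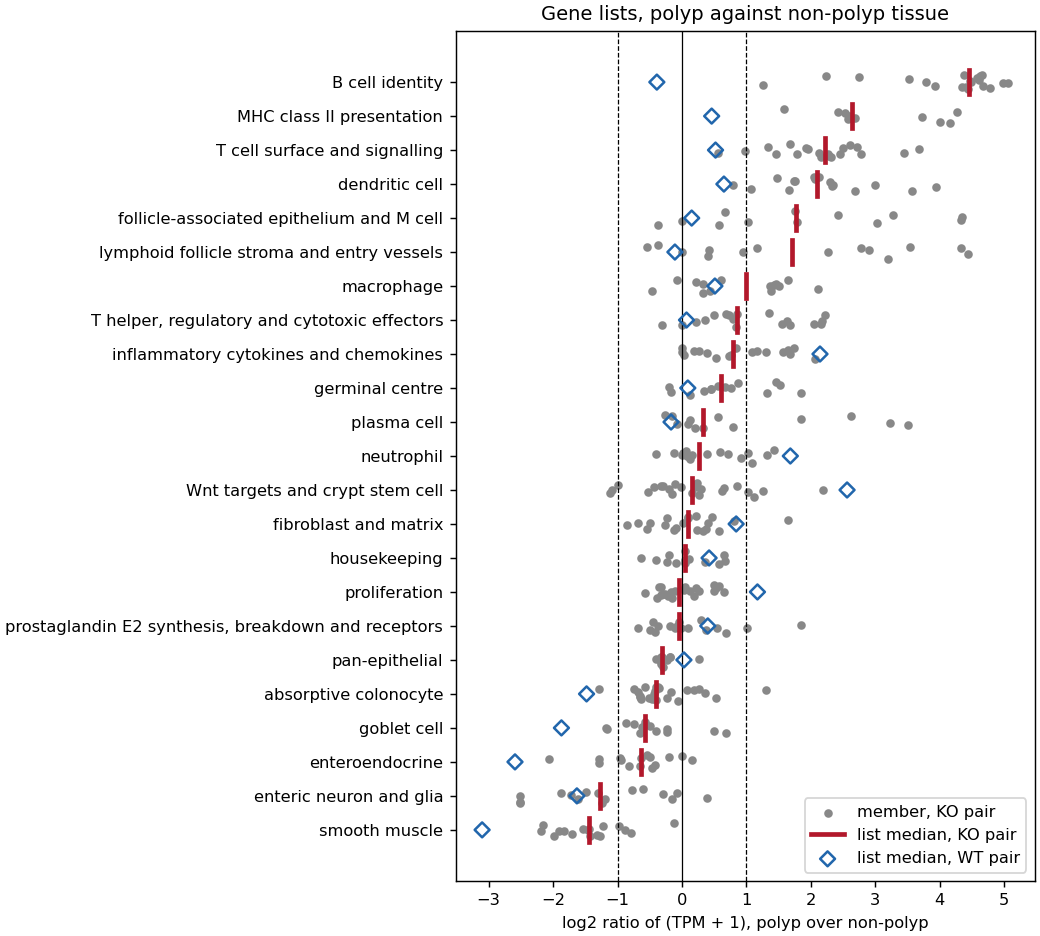
Log2 ratio of TPM + 1, polyp over non-polyp, for the members of 23 gene lists in the KO pair (grey points), with the list median in the KO pair (red bar) and in the WT pair (blue diamond) and dashed lines at the threshold. B cell genes have a median of 4.45 in the KO pair and -0.39 in the WT pair, and Wnt targets 0.15 and 2.56.

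Inflammatory genes were low in level in both KO libraries. Of 18 cytokines and chemokines 8 were higher in KO polyps (median 0.79), and their summed level was 48.9 against 11.6 TPM. In the WT pair it was 381 against 20.7 TPM. Il1b stood at 9.14 TPM in the KO polyp library, 3.12 in KO non-polyp tissue, 68.1 in WT polyps and 3.85 in WT non-polyp tissue. Tnf stood at 10.1 against 1.65 TPM and the monocyte chemokine Ccl2 at 6.38 against 2.46 TPM. Il6 was at 0.0689 and 0.072 TPM, Cxcl2 at 0.176 and 0.0368 TPM, Il23a at 1.21 and 0.547 TPM, Csf2 at 0.57 and 0.201 TPM, and none of these passed the threshold. Ccl1 reached 0.0176 TPM and was listed at 0 in non-polyp tissue, and Il17a was listed at 0 in both KO libraries. Of the 9 inflammatory genes that the study names from these libraries, 3 were higher and 0 lower against KO non-polyp tissue. With a pseudocount of 5 TPM, Il1b and Ccl2 did not pass. The study's own comparison is between polyps of the 2 genotypes, and it describes these genes as lower in KO mice. All 9 stood higher in WT than in KO polyps, though Il17a and Ccl1 were near 0 in both.

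Of 16 neutrophil genes 4 were higher, and of 13 genes of monocytes and suppressor cells 5, beside 9.91% of names at 1 TPM or more. Levels on these lists ranged widely, with Plac8, which epithelium also expresses, at 947 and 961 TPM and Ly6g at 172 and 189 TPM in the KO libraries. S100a8 and S100a9, the calprotectin genes of neutrophils, stood at 2.95 against 0.477 and 2.07 against 0.503 TPM in the KO pair, and at 53.5 and 101 TPM in WT polyps. Arg1, the arginase of suppressive myeloid cells, stood at 1.67 TPM in the KO polyp library, 0.448 in KO non-polyp tissue, 61.3 in WT polyps and 1.24 in WT non-polyp tissue. Only Il1rl1 of 13 mast cell genes was higher, and the tryptase gene Tpsb2 stood at 0.302 and 0.251 TPM. Of 17 genes of prostaglandin E2, a lipid made through cyclooxygenases, 2 were higher and 0 lower. The higher share was near the 9.91% of names at 1 TPM or more. Ptgs2, the inducible cyclooxygenase-2, stood at 1.74 TPM in the KO polyp library, 1.75 in KO non-polyp tissue, 26.7 in WT polyps and 1.67 in WT non-polyp tissue. Ptgs1, the constitutive enzyme, stood at 19.2 and 19.9 TPM, and Hpgd, which breaks prostaglandin E2 down, at 223 and 305 TPM. The higher genes were Pla2g7 (1.85) and the receptor gene Ptger2 (1.01).

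Wnt targets had a median near 0 in the KO pair (0.15), with members past the threshold on both sides. Of 23 genes, 4 were higher, 3 lower and 16 within the threshold. Among names at 1 TPM or more in either KO library, 9.91% were higher and 2.98% lower. The summed level of the Wnt targets was 337 against 314 TPM. In the WT pair the sums were 3826 and 368 TPM, and 22 of the 23 genes were higher in level in WT than in KO polyps. Lgr5, the crypt stem cell receptor, stood at 2.07 TPM in the KO polyp library, 5.15 in KO non-polyp tissue, 31.8 in WT polyps and 4.57 in WT non-polyp tissue. It lay just past the threshold on the lower side in the KO pair, and the crypt base gene Smoc2 and the Wnt feedback gene Nkd1 were also lower in KO polyps (-1.08 and -1.11). The 4 higher genes were Mmp7 (1.11), Tnfrsf19 (1.03), Wif1 and Cd44. The secreted inhibitor Wif1 stood at 9.92 against 1.42 TPM and the adhesion receptor Cd44, which leukocytes also carry, at 41.9 against 17.1 TPM. Genes of proliferation were all 22 within the threshold, with a median of -0.04, Top2a at 45.5 and 60.0 TPM among them.

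Most genes of the mature epithelium were within the threshold. Of 24 colonocyte genes 1 was higher, the uroguanylin gene Guca2b at 54.4 against 21.4 TPM. The water channel gene Aqp4 was the 1 lower, at 74.2 against 183 TPM, and the median was -0.40. Aqp8, the main colonocyte water channel, stood at 506 TPM in the KO polyp library, 782 in KO non-polyp tissue, 7.08 in WT polyps and 365 in WT non-polyp tissue. Goblet cell genes had a median of -0.57 with 2 of 14 lower, beside 2.98% of expressed names, both of them products of secreted mucus, Clca1 at 696 against 1565 TPM and Fcgbp at 366 against 830.0 TPM. Muc2, the main mucin, stood at 389 and 712 TPM. Of 15 enteroendocrine genes 3 were lower, the somatostatin gene Sst (-2.07), Scg2 (-1.28) and Pcsk1n (-1.29), which enteric neurons also express. The IgA transporter gene Pigr stood at 1409 and 2495 TPM (-0.82).

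Paneth and squamous cell genes had summed levels of 172 and 280.0 TPM in KO polyps, most of it from Lyz1 and Ly6d, against 2220.1 and 809 TPM in WT polyps. The 6 listed defensins were at 0 in both KO libraries, whereas Lyz1, a lysozyme of Paneth cells, stood at 170.2 TPM in the KO polyp library, 8.79 in KO non-polyp tissue, 1168 in WT polyps and 101 in WT non-polyp tissue. Lyz1 is a near-identical copy of Lyz2, which myeloid cells express. Ly6d stood at 255 TPM in the KO polyp library, 13.8 in KO non-polyp tissue, 78.0 in WT polyps and 17.0 in WT non-polyp tissue, while the basal keratins Krt5 and Krt14 of squamous epithelium had levels of 0.22 and 2.89 TPM in KO polyps and 27.5 and 98.4 TPM in WT polyps. Ly6d is also a gene of the B cell lineage. Of 17 squamous genes 4 were higher, and apart from Ly6d they stood under 5 TPM in KO polyps (Krt14, Krt15 and Dsc3). Among tuft cell genes 3 of 13 were higher, including Alox5ap (2.15) and Lrmp (1.93), which leukocytes also express, while the defining genes Pou2f3 and Trpm5 stood at 0.383 against 0.564 and 1.42 against 1.38 TPM.

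The lower side was led by genes of the muscle wall and its nerves. Smooth muscle genes were 13 of 17 lower, beside 2.98% of names at 1 TPM or more in either KO library. Their median was -1.44 and their summed level 2333 against 7062 TPM. Actg2, the actin of visceral muscle, stood at 257 TPM in the KO polyp library, 1172 in KO non-polyp tissue, 61.2 in WT polyps and 1074 in WT non-polyp tissue. Desmin (Des), an intermediate filament of muscle, stood at 125 TPM in the KO polyp library, 561 in KO non-polyp tissue, 13.3 in WT polyps and 695 in WT non-polyp tissue. Both followed 1 order, in which WT polyps were the lowest, KO polyps next and the non-polyp libraries the highest, and 16 of the 17 genes had that order. Myh11, the smooth muscle myosin, had a KO ratio of -1.70 and a WT ratio of -4.30.

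Enteric neuron and glia genes were 10 of 16 lower (median -1.27). Vip, a neuropeptide of secretomotor neurons, stood at 3.43 TPM in the KO polyp library, 24.4 in KO non-polyp tissue, 0.258 in WT polyps and 26.6 in WT non-polyp tissue. Prph, a neuronal filament, stood at 1.58 against 13.7 TPM, Snap25, of synaptic release, at 0.725 against 8.86 TPM, and the glial factor Sox10 at 0.508 against 3.65 TPM. Where 5 TPM was added in place of 1, the list median was -0.53. Muscle and nerve genes were thus lower in the same library in which lymphoid genes were higher, and their part in the lymphoid results was not tested. Other stroma did not differ in that way: 0 of 20 fibroblast genes were lower and 1 higher, and 12 of 12 endothelial genes stayed within the threshold. Fat tissue, exocrine pancreas and red cell lists had at most 2 genes past it. Immediate early genes, which respond to handling, had 14 of 14 within it (median -0.22).

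**Figure D4:**
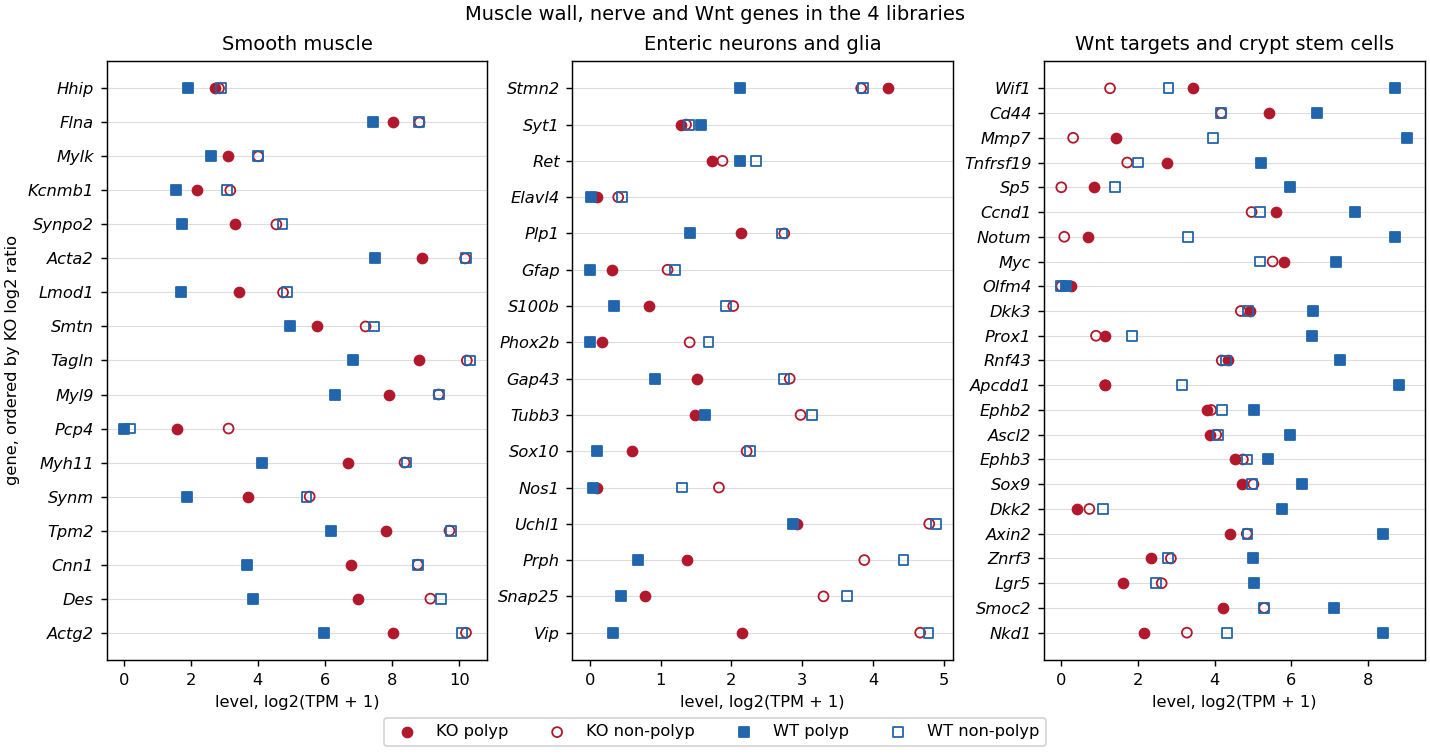
Level of smooth muscle, enteric neuron and glia, and Wnt target genes, as log2(TPM + 1), with 1 point per library and genes ordered by their KO log2 ratio. In the muscle panel KO polyps (filled circles) lie between WT polyps (filled squares) and the non-polyp libraries (open symbols) for 16 of 17 genes, while in the Wnt panel WT polyps lie to the right of KO polyps for 22 of 23 genes.

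Housekeeping genes served as a check of scale. All 13 stayed within the threshold with a median of 0.04, but Gapdh stood at 45.5 TPM in the KO polyp library, 30.1 in KO non-polyp tissue, 57.2 in WT polyps and 56.6 in WT non-polyp tissue, a KO ratio of 0.58, and Actb at 1721 against 1093 TPM. Setting Gapdh equal moved the median of expressed names to -0.51 and gave 1255 names higher and 2422 lower, the only scaling that put more names on the lower side. Under it the medians of goblet (-1.16) and enteroendocrine genes (-1.23) also lay below -1.

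Under the rule for named genes, the 12 highest ratios among names at 10 TPM or more included those of Mir142, Fcer2a, Cr2, Mndal, Tnfrsf13c, Stra6, Fcmr, Cd79b, Cxcr5, Fcrl1 and Ms4a1. Besides B cell genes the 12 held a microRNA gene, the interferon-inducible Mndal and the retinol transporter Stra6. Stra6 stood at 28.0 TPM in the KO polyp library, 0.111 in KO non-polyp tissue, 286 in WT polyps and 5.19 in WT non-polyp tissue, a KO ratio of 4.70 beside a WT ratio of 5.54. Mndal, which has close paralogs, stood at 57.2 TPM in the KO polyp library, 0.884 in KO non-polyp tissue, 5.08 in WT polyps and 10.0 in WT non-polyp tissue. Among the 12, Stra6 and Mndal were the ones whose non-polyp libraries differed by more than 1 log2 unit between the genotypes. On GRCm38 Fcer2a lies on chromosome 8 from 3681737 to 3694175 (minus strand), Cr2 on chromosome 1 from 195136811 to 195176716 (minus strand) and Stra6 on chromosome 9 from 58063788 to 58153996 (plus strand).

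Mir142 encodes miR-142, a microRNA of blood cells. In the KO polyp library the gene was listed at 79.7 TPM, and elsewhere at 0, but the deposited coverage over its 64 bases in KO polyps was 0.128 reads per base, so almost no sequenced bases lie there. Its host transcript Mir142hg, with a coverage of 169.5, stood at 136 TPM in the KO polyp library, 8.91 in KO non-polyp tissue, 19.5 in WT polyps and 6.67 in WT non-polyp tissue, a KO ratio of 3.79. The level of a hairpin gene in such a library is not that of the mature microRNA. Mir101a and Mir192, the microRNA genes among the 12 lowest, were listed at 0.0482 against 10.6 TPM and 0.891 against 13.2 TPM, and no coverage was at hand for KO non-polyp tissue to check them with. Mir101a was listed at 0 in WT non-polyp tissue. The mature sequences (RefSeq, GRCm38.p6), with the seed at bases 2 to 8 in capitals, show that these genes share no seed:
miR-142a-5p: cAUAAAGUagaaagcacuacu
miR-142a-3p: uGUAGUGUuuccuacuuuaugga
miR-101a-3p: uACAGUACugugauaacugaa
miR-192-5p: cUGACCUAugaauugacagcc
Mir142 lies on chromosome 11 from 87756864 to 87756927 (plus strand), within Mir142hg, Mir101a on chromosome 4 from 101346945 to 101347027 (minus strand) and Mir192 on chromosome 19 from 6264844 to 6264932 (plus strand).

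The 12 lowest ratios were those of Mir101a, Thrb, Calb2, Lpp, Hoxb5os, Mir192, Ptn, Sarnp, Vip, Prph, Tspan9 and Gsdme. They were of different kinds. In 7 of the 12 the non-polyp libraries of both genotypes lay within 1 log2 unit. Calb2, the calcium binding protein calretinin of enteric neurons, was 1 of them and stood at 0.486 TPM in the KO polyp library, 11.8 in KO non-polyp tissue, 0.0857 in WT polyps and 11.3 in WT non-polyp tissue. Ptn, the growth factor pleiotrophin, stood at 5.22 TPM in the KO polyp library, 37.6 in KO non-polyp tissue, 336 in WT polyps and 35.4 in WT non-polyp tissue, so it was lower in KO polyps and higher in WT polyps. Hoxb5os, a transcript antisense to Hoxb5, stood at 0.634 against 11.3 TPM, and whether counting used strand is not known. In the other 5 the KO non-polyp library lay more than 1 log2 unit above WT non-polyp tissue. Lpp, an adhesion protein of smooth muscle and other cells, stood at 2.65 TPM in the KO polyp library, 29.0 in KO non-polyp tissue, 2.72 in WT polyps and 3.67 in WT non-polyp tissue. Thrb, a thyroid hormone receptor, stood at 0.263 TPM in the KO polyp library, 10.3 in KO non-polyp tissue, 0.119 in WT polyps and 1.27 in WT non-polyp tissue. Sarnp, an RNA binding protein, stood at 5.05 TPM in the KO polyp library, 35.7 in KO non-polyp tissue, 46.8 in WT polyps and 4.13 in WT non-polyp tissue. With WT in place of KO non-polyp tissue, the ratio of KO polyps was -0.35 for Lpp, -0.84 for Thrb, 0.24 for Sarnp and 0.07 for Mir101a.

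Taking WT in place of KO non-polyp tissue for every name, which shares the KO polyp library and differs in genotype, gave 1849 names higher and 604 lower. Of the 1798 names higher against KO non-polyp tissue, 1426 (79.3%) were also higher against WT non-polyp tissue, and of the 540 lower 270 (50%) were also lower. List medians were 4.20 for B cells, 3.11 for MHC class II, 1.99 for T cells, -1.47 for smooth muscle and -1.21 for enteric neurons and glia. Besides Thrb and Lpp, other named genes past the threshold in the KO pair did not pass it here in their own direction. They were Lyz1 (0.75), Wif1 (0.65), Tnfrsf19 (0.74), Clec4n (0.84), Mmp9 (0.44), Ifi27l2a (0.49), Aqp4 (-0.49) and Fcgbp (-0.89), and Usp18 (-0.02), Mir101a and Sarnp, whose sign changed.

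The WT pair, which shares no library with the KO pair, shows which of these differences came with the polyp label in both genotypes. It had 2818 names higher (5.16%) and 2004 lower (3.67%) in polyps. Over the 19509 expressed names the log2 ratios of the KO and WT pairs correlated at Pearson r = 0.20 and Spearman rho = 0.28. Of the names higher in the KO pair, 384 were higher in the WT pair, 143 lower and 1271 within the threshold. Of the names lower in the KO pair, 222 were lower in the WT pair, 51 higher and 267 within the threshold.

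Muscle and nerve genes were lower in both pairs, with WT medians of -3.10 and -1.63. Clu, Stra6 and Lyz1 were higher in both. B cell genes were not: in the WT pair 0 of 20 were higher, 3 lower and 17 within the threshold (median -0.39). Class II genes had a WT median of 0.46 and T cell genes of 0.52. Igha and Igkc were lower in WT polyps, with WT ratios of -3.63 and -3.13, whereas Ighd (0.38) and Ighm (-0.92) were within the threshold. Wnt targets (2.56), proliferation (1.17), inflammatory (2.14), squamous (2.49) and Paneth cell genes (3.55) had WT medians above 1 where the KO medians were 0.15, -0.04, 0.79, 0.09 and 0.00. The difference between the pairs was not tested, since each has 1 library per tissue.

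**Figure D5:**
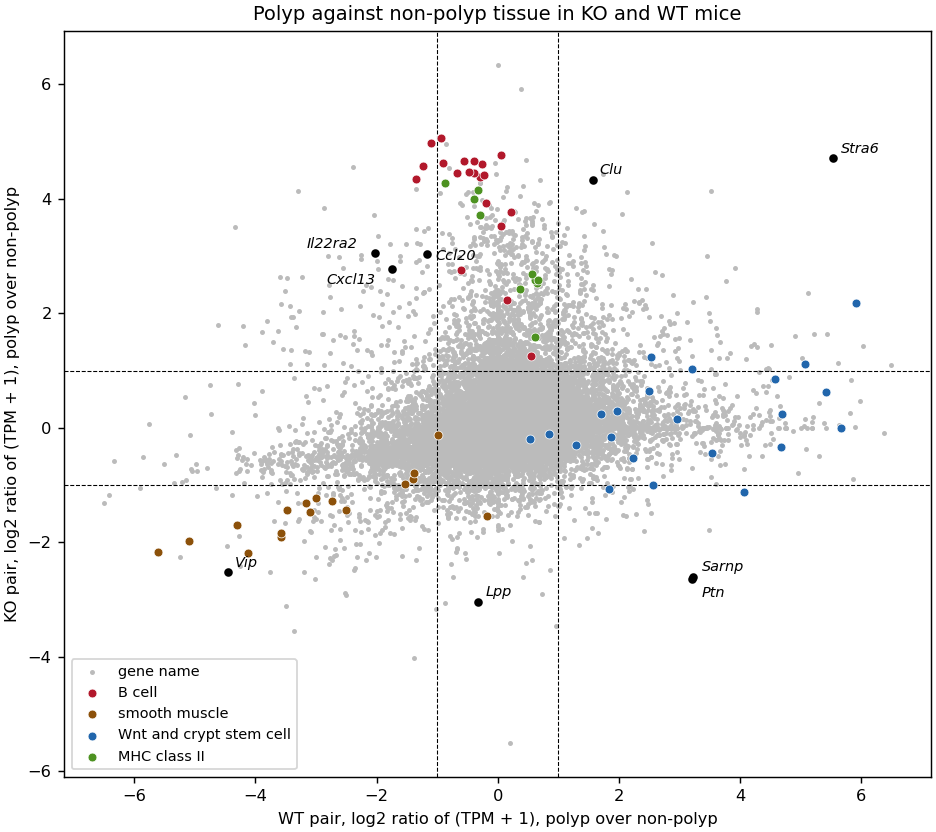
Log2 ratio of TPM + 1, polyp over non-polyp, in the KO pair (y axis) against the WT pair (x axis) for 19509 gene names at 1 TPM or more in any library, with dashed lines at the threshold. B cell genes (red) and MHC class II genes (green) lie high and near or below 0 on the x axis or just above it, Wnt and crypt stem cell genes (blue) lie to the right and near 0 on the y axis, smooth muscle genes (brown) lie low in both, and Pearson r over all names is 0.20.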

How the data were processed

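Colorectal tissue of germ-free KO and WT mice gave 4 libraries, 1 per group. Trimmomatic trimming, HISAT2 alignment to GRCm38 (mm10) and StringTie quantification, run in Galaxy, are what the methods state, and versions and annotation release are not given in the sources used here. The labels and the methods name different library kits. The values used are the TPM that the authors deposited for reference genes. In 3 tables the same column also lists assembled loci overlapping those genes, which were left out. The KO non-polyp table has another format, with TPM and a ratio to Gapdh that was not used. Read depth per base is the deposited coverage signal, used for microRNA genes only.

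Where a spreadsheet had changed a symbol to a date (27 entries in each of the fuller tables), it was restored from the gene identifier. TPM was summed per gene name. The 26 such names were not analysed in the KO pair. Log2 ratios used a pseudocount of 1 TPM, so changes of low genes are understated, and the study's threshold of 1. No test was run. The 47 gene lists, of which 4 were named by the study, and the members were chosen with earlier results of these data known, and so were the alternatives. The rule named Clec7a, the genes of the study's lists, the 12 highest and 12 lowest ratios among names at 10 TPM or more (antigen receptor segments, predicted, ribosomal protein, mitochondrial and sex-linked genes left out), and up to 6 members per list, at a minimum of 5 TPM, ranked by ratio in the direction of the list's median, 237 genes in all, of which the text gives those the results turn on. A few genes counted in the lists are not reported here by name. Other list members were named for their role, and Mir142hg because Mir142 lies in it. The procedure was tested on simulated data. Python 3.11.15, pandas 2.3.3, numpy 2.4.6 and matplotlib 3.10.9 were used.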

Additional observations from a re-analysis of the deposited data

Results flagged for a closer look

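Of the named genes, 12 passed the threshold in opposite directions in the KO and WT pairs, and these differences were not tested, since each pair has 1 library per tissue. The difference in log2 ratio, KO pair minus WT pair, was 6.07 for Cr2, 5.81 for Ms4a1, 5.71 for Spib, 5.08 for Il22ra2, 4.83 for Ccr6, 4.65 for Cd69, 4.52 for Cxcl13, 4.25 for Enpp2, 4.20 for Ccl20 and 3.64 for Mzb1, which were all higher in KO polyps and lower in WT polyps. In WT polyps and WT non-polyp tissue Cxcl13 stood at 14.8 and 52.1 TPM and Enpp2 at 8.45 and 23.1 TPM, against 1.96 and 5.33 TPM for Cr2. The difference was -5.84 for Ptn and -5.82 for Sarnp, which were lower in KO polyps and higher in WT polyps. Over all names, 143 were higher in the KO pair and lower in the WT pair and 51 were the reverse.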

How the results depend on the processing

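With a pseudocount of 0.1 TPM, KO polyps had 4377 names higher and 2717 lower, the WT pair had 10535 names past the threshold, against 4822 with 1 TPM, and r between the pairs was 0.17. A pseudocount of 5 TPM gave 839 higher, 126 lower, 2419 in the WT pair and r = 0.23. Setting Gapdh equal gave 2422 lower and r = 0.23, and rescaling without immunoglobulin and haemoglobin genes r = 0.24. Names at 5 TPM or more gave 260 lower, and protein-coding genes, chosen after seeing the data, 338. Higher names made 76.9% of all calls, 61.7% and 86.9% with the low and high pseudocount, 65.7% with quantile normalization and 34.1% with Gapdh set equal. Of 124 named genes past the threshold 92 passed it under all of the 11 other settings listed with the design that could give them a value. None of these 124 genes changed direction in those. With WT non-polyp tissue in place of KO, Usp18 (-0.02), Mir101a (0.07) and Sarnp (0.24) did. That setting was chosen after seeing the data, as was scaling to pan-epithelial genes (2350 higher, 386 lower). Changes of sign among named genes within the threshold were not counted. Some did change, such as Gapdh, from 0.58 to -0.31 with WT non-polyp tissue. The cause of these changes was not tested. The medians of enteric neuron (-0.53) and study-named Th1 genes (0.79) lost the threshold with 5 TPM. No paired analysis was possible because the labels give no replicate numbers and each group has 1 library, and for that reason no replicate was left out. Depth limits low genes most, and it is not known.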

Other observations

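The remaining lists of the KO pair had at most 4 genes each past the threshold. Of 14 genes of the epithelial antimicrobial response only Reg3g, a lectin that kills Gram-positive bacteria, was higher, and it stood at 5.15 TPM in the KO polyp library, 0.202 in KO non-polyp tissue, 66.5 in WT polyps and 0.941 in WT non-polyp tissue. Of 20 interferon response genes 4 were higher and 0 lower, beside 9.91% higher among names at 1 TPM or more in either KO library. Usp18 (1.64), the feedback inhibitor of interferon signalling, led them, at 5.94 against 1.23 TPM in the KO pair and 6.03 TPM in WT non-polyp tissue. Against WT non-polyp tissue Usp18 (-0.02) and Ifi27l2a (0.49) did not pass. Stra6 was the only one of 22 genes of retinoic acid synthesis and response past the threshold.

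Hox genes, whose expression follows position along the gut, differed little between the KO libraries. All 15 genes of the distal gut were within the threshold, and of 17 genes of the middle gut only Hoxb5 (-1.13) was past it. Lymphatic vessel genes were all within the threshold too (8 of 8). Cfd, the adipsin gene of fat cells, stood at 0.13 TPM in the KO polyp library, 1.81 in KO non-polyp tissue, 0 in WT polyps and 89.6 in WT non-polyp tissue, so it was far higher in WT non-polyp tissue than in either KO library.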
